A study of Mus musculus with 2 samples.

Results

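The Notch pathway genes described here are 4: the receptor genes Notch1 and Notch2, the ligand gene Jag1 and the target gene Hes1. Each was taken as an interval of the mouse build mm9, widened by 20 kb on both sides. Notch2 is the interval on chromosome 3 from 97817000 to 97955000, and Notch1 the interval on chromosome 2 from 26313000 to 26360000. Jag1 is the interval on chromosome 2 from 136907000 to 136943000, and Hes1 the interval on chromosome 16 from 30064000 to 30069000. The widened loci cover 386 kb and hold 4773 of the 13581267 tags of the Brg1 library and 1268 of the 5778620 input tags.

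The cells were primary fibroblasts from wild type mouse embryos (C57BL/6 and 129 mixed background) at E13.5, in both libraries. In 1 library, chromatin cut with micrococcal nuclease and briefly sonicated was immunoprecipitated with a rabbit polyclonal antibody to Brg1. The other is input chromatin, for which the labels list no antibody. With 1 library per group there is no replicate, so intervals cover counting error only and nothing below is a test of a condition. The genes were chosen by a list of coordinates that was proposed with the ChIP/input ratios of these libraries known, among them those of a stretch inside Notch2. Their ratios are therefore a description and support nothing. In a gene table of the build GRCm38 all 4 genes lie on the same chromosome as in the rule. Positions within mm9 were not checked against gene models, and exons and introns were not assigned. The defining markers of fibroblasts were not examined, since no transcript was measured.

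Notch receptors are membrane proteins that are cut when a ligand such as Jag1 on a neighbouring cell binds them. The freed intracellular domain enters the nucleus and joins the DNA-binding protein Rbpj at target genes, of which Hes1, a basic helix-loop-helix repressor, is a classical case. Brg1 is a catalytic ATPase of Swi/Snf, which uses ATP to slide or remove nucleosomes.

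The reference promoters are shown because ChIP tags were dense just inside the gene starts, although the sequences also hold bases before the start. The 1 kb window inside the start end of the interval held 51 ChIP tags in Notch2, 31 in Notch1 and 23 in Jag1. The window before it held 7, 15 and 19. For 3 of the 4 genes RefSeq (GRCm38.p6) gave 300 bases around the start, 5′ to 3′ on the gene's strand, with every GGGCGG on either strand in capitals. The Notch2 promoter is chr3:98013288-98013587 on the plus strand, that of Notch1 is chr2:26503773-26504072 on the minus strand and that of Jag1 is chr2:137116471-137116770 on the minus strand. These coordinates are of GRCm38.p6 and cannot be set beside the mm9 coordinates of the tags.
Notch2: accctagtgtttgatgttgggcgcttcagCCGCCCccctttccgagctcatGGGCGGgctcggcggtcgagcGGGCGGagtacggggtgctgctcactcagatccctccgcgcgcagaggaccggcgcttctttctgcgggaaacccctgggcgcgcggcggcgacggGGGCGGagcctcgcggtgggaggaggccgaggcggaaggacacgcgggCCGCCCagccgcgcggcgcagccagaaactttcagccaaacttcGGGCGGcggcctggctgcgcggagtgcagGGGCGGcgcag
Notch1: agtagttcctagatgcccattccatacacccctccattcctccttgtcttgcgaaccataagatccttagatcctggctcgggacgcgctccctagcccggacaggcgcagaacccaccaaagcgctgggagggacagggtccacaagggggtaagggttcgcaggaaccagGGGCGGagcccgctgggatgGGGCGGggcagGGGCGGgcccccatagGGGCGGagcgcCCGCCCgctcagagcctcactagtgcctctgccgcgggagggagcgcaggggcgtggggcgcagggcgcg
Jag1: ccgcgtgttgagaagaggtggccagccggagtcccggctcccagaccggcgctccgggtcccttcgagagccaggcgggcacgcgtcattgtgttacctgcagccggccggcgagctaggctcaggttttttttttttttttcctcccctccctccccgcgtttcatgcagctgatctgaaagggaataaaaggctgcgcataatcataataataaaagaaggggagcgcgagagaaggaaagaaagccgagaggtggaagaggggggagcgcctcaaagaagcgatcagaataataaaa

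The 3 promoters differ in composition. The GC content was 73.0% for Notch2, 68.3% for Notch1 and 55.7% for Jag1, against a median of 52.7% over 32851 promoters of the same length. Notch2 held 41 CpG dinucleotides, a number that 3.46% of promoters reach, and Notch1 held 23 and Jag1 22, against a median of 7. GGGCGG, the GC box bound by Sp1-family factors, occurred 7 times in Notch2, 5 times in Notch1 and 0 times in Jag1, and 35.7% of all promoters hold it. CACNAG, the N-box bound by Hes proteins, matched 1 time in Notch2, 3 times in Notch1 and 0 times in Jag1, against 42.5% of promoters with a match. CANNTG, the E-box, matched only in Jag1, 1 time, and 72.3% of promoters hold it. TGGGAA, the core of the Rbpj motif, had no match in the 3 sequences (25.6% of promoters hold it), nor had CGTGGGAA (0.734%), which contains it, TGACTCA (5.20%), CCAAT (37.4%) or TATAAA (13.6%). All motifs were sought on both strands, and a match is no more than those letters in this window.

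Brg1 tags were denser in all 4 loci than on the autosomes, and denser relative to the input as well. Ratios here are ChIP tags over input tags after the ChIP library, with 2.36 times the autosomal tags, was scaled down to the input, with exact 95% intervals. The Hes1 locus had the highest ratio, 1.69 (1.42 to 2.03), from 627 ChIP and 157 input tags over 45 kb. Notch2 was next at 1.68 (1.53 to 1.85), from 2238 and 565 tags over 178 kb. Jag1 stood at 1.49 (1.29 to 1.73), from 834 and 237 tags over 76 kb, and Notch1 at 1.47 (1.30 to 1.68), from 1074 and 309 tags over 87 kb. The interval of each locus overlaps that of its neighbour in this order, so the order itself is not resolved. The loci also differ in length, from 45 to 178 kb, and were not compared at equal lengths. Per kb the ChIP library held 13.9 tags in Hes1, 12.6 in Notch2, 12.3 in Notch1 and 11.0 in Jag1, against 5.47 on the autosomes. Input density was also above its autosomal 2.32 tags per kb, at 3.49 in Hes1, 3.17 in Notch2, 3.55 in Notch1 and 3.12 in Jag1. The part of the denser input in the ratios was not tested.

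**Figure D1:**
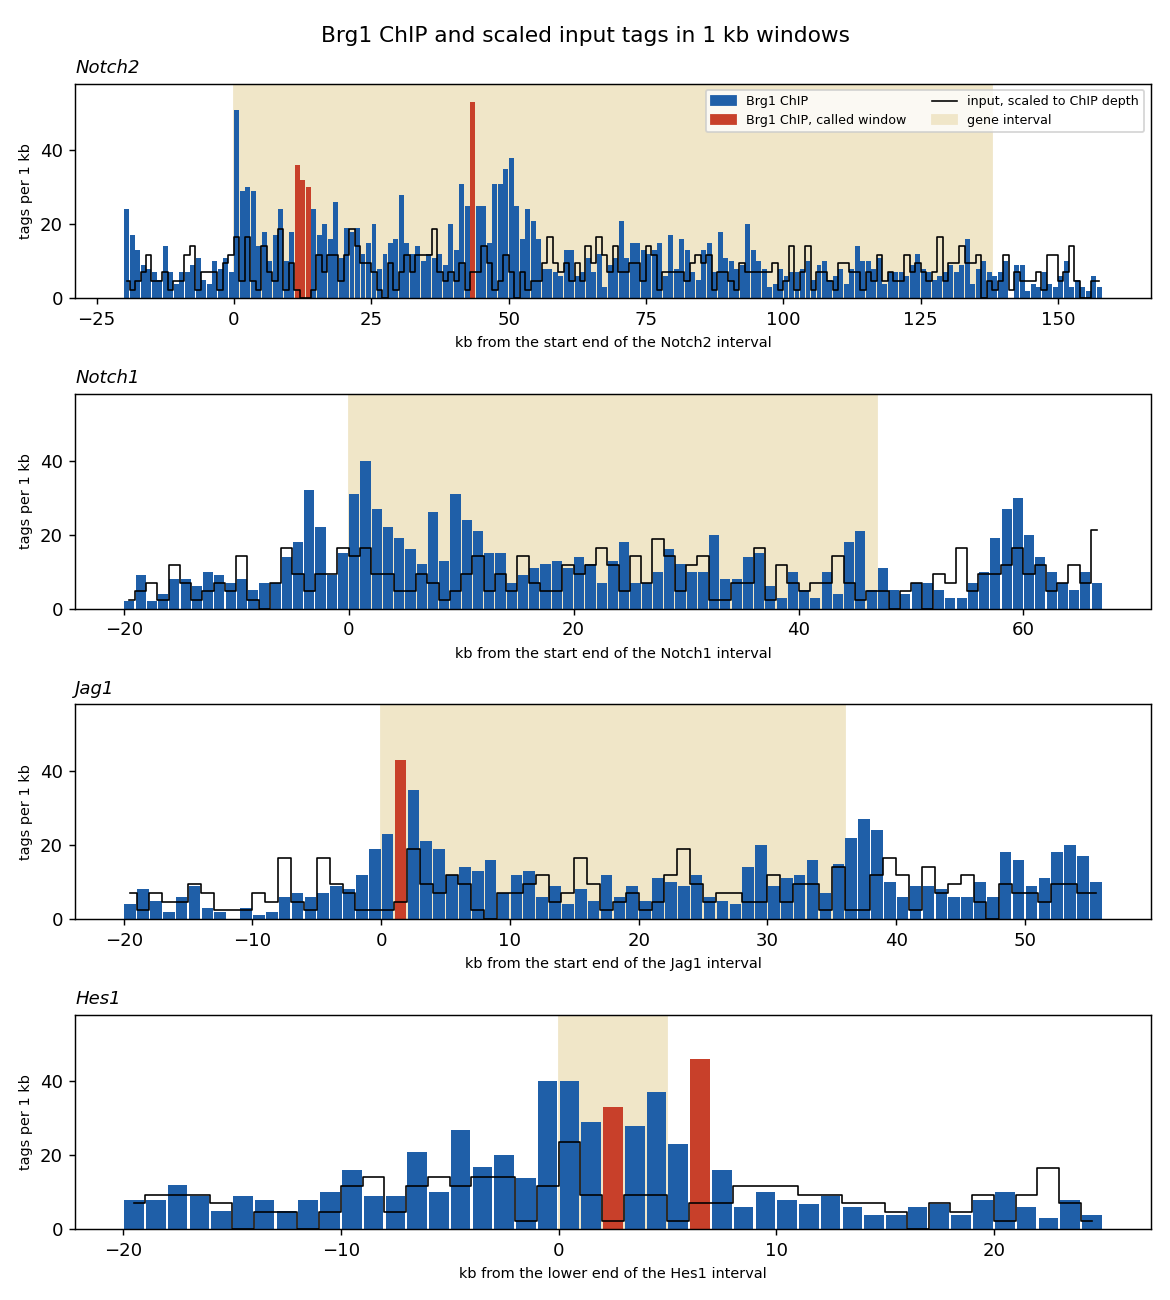
Tags per 1 kb window (vertical axis) of the Brg1 ChIP library (bars, red where called) and of the input scaled to ChIP depth (line), by distance in kb from the start end of each interval, or from its lower end for Hes1. Shading marks the gene interval; the tallest bars are 53 tags in Notch2, 40 in Notch1, 43 in Jag1 and 46 in Hes1.

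To set the loci beside the whole genome, tags were counted in 1 kb windows. Of 286 windows in the 4 loci with at least 10 tags in both libraries together, 143 had a ratio of at least 1.5, and 38.1% of all 706215 tested windows did. A ratio at or below the inverse of 1.5 was found in 34, against 22.7% of all windows. Over the windows that passed the minimum the median ratio was 1.70 in Jag1 (54 of 76 windows), 1.57 in Notch2 (130 of 178), 1.49 in Notch1 (67 of 87) and 1.36 in Hes1 (35 of 45), and 1.13 over all tested windows. A window can pass through its ChIP tags alone, so these medians do not rank the loci and support nothing. With a minimum of 20 tags, 77 of 94 windows of the loci reached 1.5, beside 76.7% of all. A window was called higher when an exact binomial test on its tags also gave an adjusted p under 0.05 over all tested windows. This held for 7 windows, 4 of them in Notch2, 2 in Hes1 and 1 in Jag1, and for 0.38% of all windows; 0 of the 67 tested Notch1 windows were called. No window of the loci was called lower, as were 0.00666% of all windows. None of the 7 calls held when tags of a strand within 5 bp were counted as 1, at ratios of 3.94 to 14.4, beside 4.24 to 15.3 with all tags (an empty input set to 3 tags in both). Nor did any hold when a window's input was kept at or above its mean over 10 kb, which left ratios of 3.50 to 7.50.

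The receptor gene Notch2 carried the broadest stretch of dense ChIP tags, over its first 60 kb. In steps of 10 kb from the start end, ChIP density relative to the autosomal mean was 4.24, 4.20, 2.81, 2.61, 5.19 and 3.09 over the first 6 steps. The input of the same steps ran at 1.68, 1.12, 1.55, 1.81, 1.34 and 1.25, and was highest in the step where the ChIP density was lowest. The highest ratios were 3.89 (2.68 to 5.83) at 40 to 50 kb and 3.75 (2.50 to 5.87) at 10 to 20 kb. The ratio was 0.908 (0.626 to 1.34) at 60 to 70 kb, then 1.72 (1.18 to 2.59) at 70 to 80 kb. From 100 to 130 kb it lay between 0.952 and 1.19, with intervals that include 1. Before the start the ratio was 1.99 (1.26 to 3.28) at 10 to 20 kb and 1.02 (0.669 to 1.57) in the nearer 10 kb. The flank beyond the gene end had 102 ChIP and 49 input tags in 20 kb, a ratio of 0.883 (0.622 to 1.27).

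Over windows of 10 kb on the genome's own grid, 6 adjacent Notch2 windows from 97810000 to 97869999 were called higher by the same rule. Together they held 1178 ChIP and 200 input tags (ratio 2.50, 2.15 to 2.92). Of the 7969 merged regions called at this width in the genome, 13 span at least 6 windows, this one included. Ratios inside Notch2 were known when the genes were chosen, so this rank is a description only. Among the other genes 1 window each was called: in Notch1 from 26350000 to 26359999 (237 against 35 tags, ratio 2.87, 2.01 to 4.22), in Jag1 from 136940000 to 136949999 (169 against 30, ratio 2.39, 1.61 to 3.65) and in Hes1 from 30060000 to 30069999 (281 against 42, ratio 2.84, 2.05 to 4.03). That makes 9 of 35 windows lying wholly in the loci, beside 3.98% of all 249877 tested windows. None of the 35 was called lower, beside 1.11%. By ratio alone 17 of the 35 reached 1.5 and 1 was at or below its inverse, beside 11.1% and 19.9% of all.

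**Figure D2:**
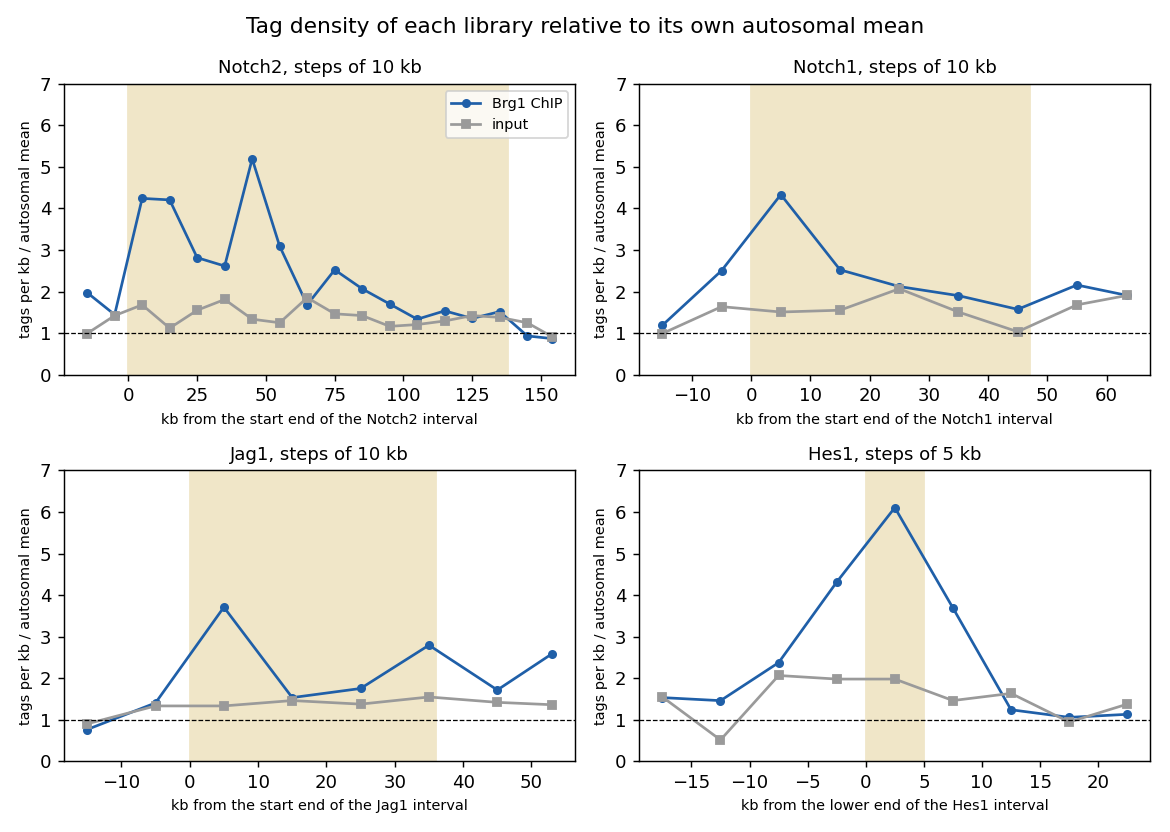
Tags per kb of each library divided by its own autosomal mean (vertical axis), in steps of 10 kb, or 5 kb for Hes1, by distance in kb from the start end or lower end of the interval (shaded). ChIP density is above input density in the first step inside every interval, with values of 4.24 in Notch2, 4.33 in Notch1, 3.71 in Jag1 and 6.10 in Hes1. The Hes1 value is over 5 kb and the others over 10 kb, so they are not at equal length.

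At the Notch2 start the ChIP tags differed sharply between adjacent windows. The window just before the start end, from 97816000, held 7 ChIP and 5 input tags, and the next, from 97817000, held 51 and 7, a ratio of 3.09 (1.40 to 8.08). As many ChIP tags are found in 0.0239% of autosomal windows. With 7 input tags this window was not called, and the called windows lay deeper in the gene. Between 11 and 14 kb from the start end, the 3 adjacent windows from 97828000 held 36, 32 and 30 ChIP tags against 1, 0 and 0 input tags. The first of these had a ratio of 15.3 (2.57 to 620). By the exact lower bounds the second was at least 3.47-fold and the third at least 3.24-fold higher; with 3 tags standing in for the empty input, which leaves out the counting error of the ChIP tags, their values were 4.53 and 4.24. The first window stood at 5.09 with the input kept at its mean over 10 kb and at 7.21 in the higher of its 500 bp parts. The 2 kb window that joins the first and second stood at 28.9, and the one that holds the third at 22.9. Each of these 2 kb ratios rests on 1 input tag, and their intervals were not computed. For the 3 windows together, 98 ChIP tags against 1 input tag, the interval ran from 7.29 to 1659. In their higher 500 bp parts the second and the third stood at 2.55 each, with 3 tags in place of an empty input. These windows held fewer ChIP tags than the window at the start and nearly no input tags.

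The densest Notch2 window lay 43 to 44 kb inside the gene, from 97860000, with 53 ChIP and 3 input tags. Its ratio was 7.50 (2.43 to 37.5), and 0.0173% of autosomal windows hold as many ChIP tags. A window at 51 to 52 kb, from 97868000, held 25 ChIP tags and no input tag, which puts it at least 2.67-fold higher by the exact lower bound (3.54 with 3 tags in place of 0), and was not called. It was called when the p-value summed the outcomes no more likely than the one seen. The 4 called windows held 151 of the 2238 ChIP tags of the locus, or 6.75%. Outside them the ratio of the locus was still 1.58 (1.44 to 1.74).

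For Notch1, ChIP tags were densest over the first 10 kb of the gene. It had no called 1 kb window at the minimum of 10 tags, but this depended on the setting. With a minimum of 20 tags, 3 of its 24 tested windows were called, beside 19.4% of the genome. With 2 kb windows it was 1 of 43, beside 0.802%. The window with the most ChIP tags, from 26358000, lay 1 to 2 kb inside and held 40 ChIP and 7 input tags (ratio 2.42, 1.07 to 6.42). Beside the start end the counts were 31 and 6 inside the gene (ratio 2.19, 0.901 to 6.43) and 15 and 7 outside it (ratio 0.909, 0.349 to 2.64). In the 2 kb around the start end the input thus stood at 6.50 tags per kb, above its autosomal mean, and the ratio was 1.502 (0.798 to 3.03). The next 10 kb held 230 and 33 tags, a ratio of 2.96 (2.05 to 4.40), and the rest of the gene 400 and 135, a ratio of 1.26 (1.03 to 1.54). The intervals of these last 2 ratios do not overlap. The highest lower bounds belonged to a window 3 to 4 kb before the start (32 against 2 tags, ratio 6.79, 1.73 to 58.5) and to windows 9 to 10 kb (31 against 2, ratio 6.58, 1.67 to 56.7) and 45 to 46 kb (21 against 1, ratio 8.91, 1.43 to 369) inside.

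Jag1, which encodes a ligand of these receptors, had its densest parts around the start and in the next 10 kb. The 2 kb around the start end held 42 ChIP and 2 input tags (ratio 8.91, 2.32 to 76.0), and the next 10 kb held 192 and 33, a ratio of 2.47 (1.70 to 3.69). In the rest of the gene the counts were 238 and 85, a ratio of 1.19 (0.924 to 1.54). The flank beside the start, 19 kb long, held 100 and 51 tags, a ratio of 0.832 (0.588 to 1.19). That beyond the gene end, 20 kb long, held 262 and 66, a ratio of 1.68 (1.28 to 2.24), so tags were not confined to the start. The called window, from 136941000, lay 1 to 2 kb inside and held 43 and 2 tags, a ratio of 9.12 (2.38 to 77.7). Its ratio was 4.56 with the input kept at its mean over 10 kb and 3.31 in a 2 kb window. With tags not moved along their strand it was 5.09 and the 1 Jag1 call lay in another window. From the called window outward the ChIP counts were 43, 23 and 19 per window, each of the last 2 with 1 input tag. Unlike at both receptor genes, the input around this start was low, at 1.00 tag per kb, and its part in the ratio was not tested. A window 8 to 9 kb inside held 16 ChIP tags and no input tag, which puts it at least 1.64-fold higher by the exact lower bound (2.26 with 3 tags in place of 0).

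**Figure D3:**
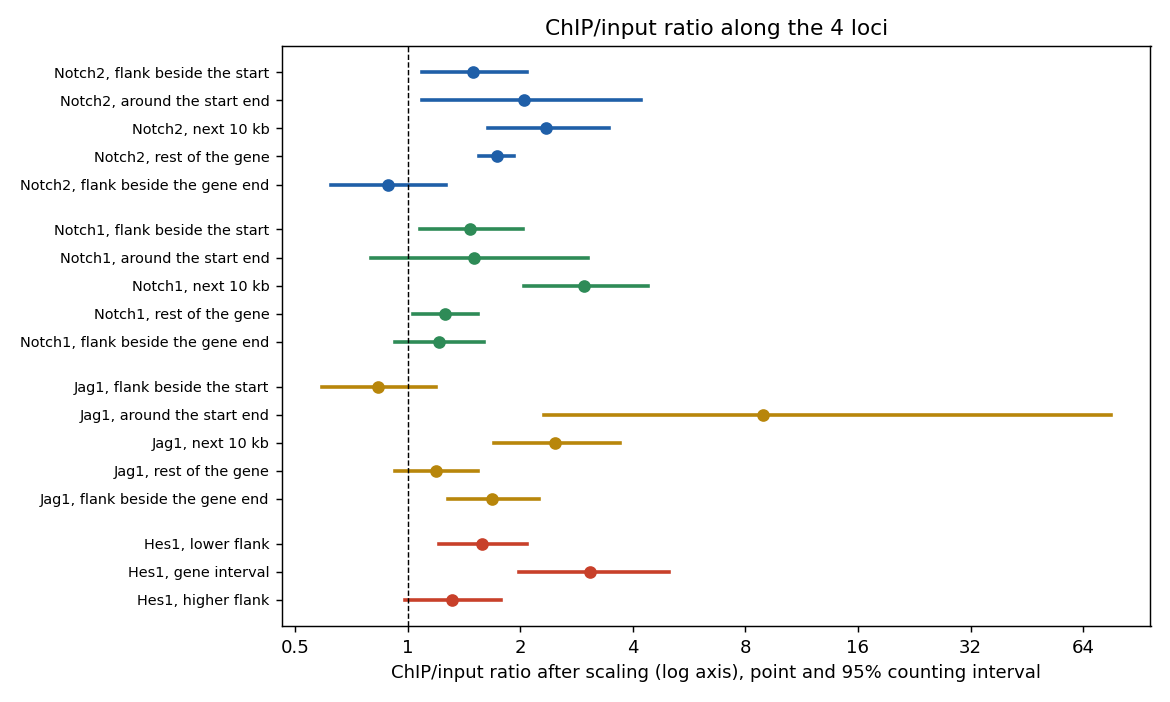
ChIP/input ratio after scaling (horizontal log axis; point, with its 95% counting interval as a line) in the parts of each locus; the dashed line marks a ratio of 1. The intervals of the next 10 kb lie above those of the rest of the gene in Notch1 and Jag1 and overlap them in Notch2.

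Hes1, the short target gene, had the highest density of the 4 over its gene interval. That interval is 5 kb long, against 36 to 138 kb for the others, and densities were not compared at equal lengths. In single 1 kb windows Notch2 reached 53 ChIP tags and Hes1 46. The 5 kb Hes1 interval held 167 ChIP and 23 input tags, or 33.4 and 4.60 tags per kb. These densities are 6.10 and 1.98 times the autosomal means. The ratio there was 3.08 (1.99 to 4.99), beside 1.58 (1.21 to 2.09) in the 20 kb on the lower side and 1.31 (0.984 to 1.77) in the 20 kb on the higher side. The strand of Hes1 was not in the promoter table, so its sides are named by coordinate. In steps of 5 kb, ChIP density was 4.31 times the autosomal mean just below the interval, 6.10 times in it and 3.69 times just above. It was 2.38 times in the step before these and 1.24 times in the step after. The ratios of the 3 central steps were 2.18 (1.38 to 3.57), 3.08 and 2.52 (1.499 to 4.50).

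Within Hes1, the windows from 30063000 and 30064000, on both sides of the lower end, held 40 ChIP tags each, with 5 and 10 input tags and ratios of 3.39 (1.34 to 11.0) and 1.70 (0.834 to 3.81). The called window from 30066000 held fewer ChIP tags, 33, against 1 input tag, a ratio of 14.0 (2.34 to 570). That ratio was 3.50 with the input kept at its mean over 10 kb, 5.18 in a 2 kb window and 7.21 in the higher of its 500 bp parts. The other called window, from 30070000, lay 1 to 2 kb above the interval and had the most ChIP tags of the locus, 46 against 3, a ratio of 6.51 (2.09 to 32.7). Between them the windows at the higher end held 37 and 4 tags (ratio 3.93, 1.41 to 15.2) and 23 and 1 (ratio 9.76, 1.58 to 402). In the gene table the next gene above Hes1 is the long noncoding RNA gene Gm32998, and the next below it is 9030404E10Rik. Tags of Hes1 cannot be told apart here from those of either neighbour. The 2 called windows held 12.6% of the ChIP tags of the locus, and without them its ratio was 1.52 (1.27 to 1.83). Both calls were lost with 1 tag per position, at ratios of 14.1 and 6.27, and with tags not moved along their strand. The window from 30066000 held its 33 ChIP tags at 33 distinct positions, so its counts were the same with 1 tag per position. Under that setting 0.281% of the windows of the genome were called, beside 0.38% with all tags.

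The called regions were built of many separate tags on both strands. In the 3 kb stretch of Notch2, 98 ChIP tags lay at 96 distinct positions, with 51 plus-strand and 47 minus-strand tags. They were spread over the stretch, with 1 to 10 tags in each 200 bp, and the 2 bins of 200 bp beyond it held 3 and 13 tags. The Notch2 window at 43 kb held 26 plus and 27 minus tags at 53 positions, and its last 3 bins of 200 bp held 15, 13 and 13 of them. The first of these bins held 11 plus and 4 minus tags, and the last 2 plus and 11 minus tags. The Jag1 window held 20 plus and 23 minus tags, with 10, 11, 5, 4 and 13 per 200 bp. The Hes1 window inside the interval was even, with 4 to 8 tags per 200 bp, while that above it had 14 and 17 tags in its middle and last bins.

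**Figure D4:**
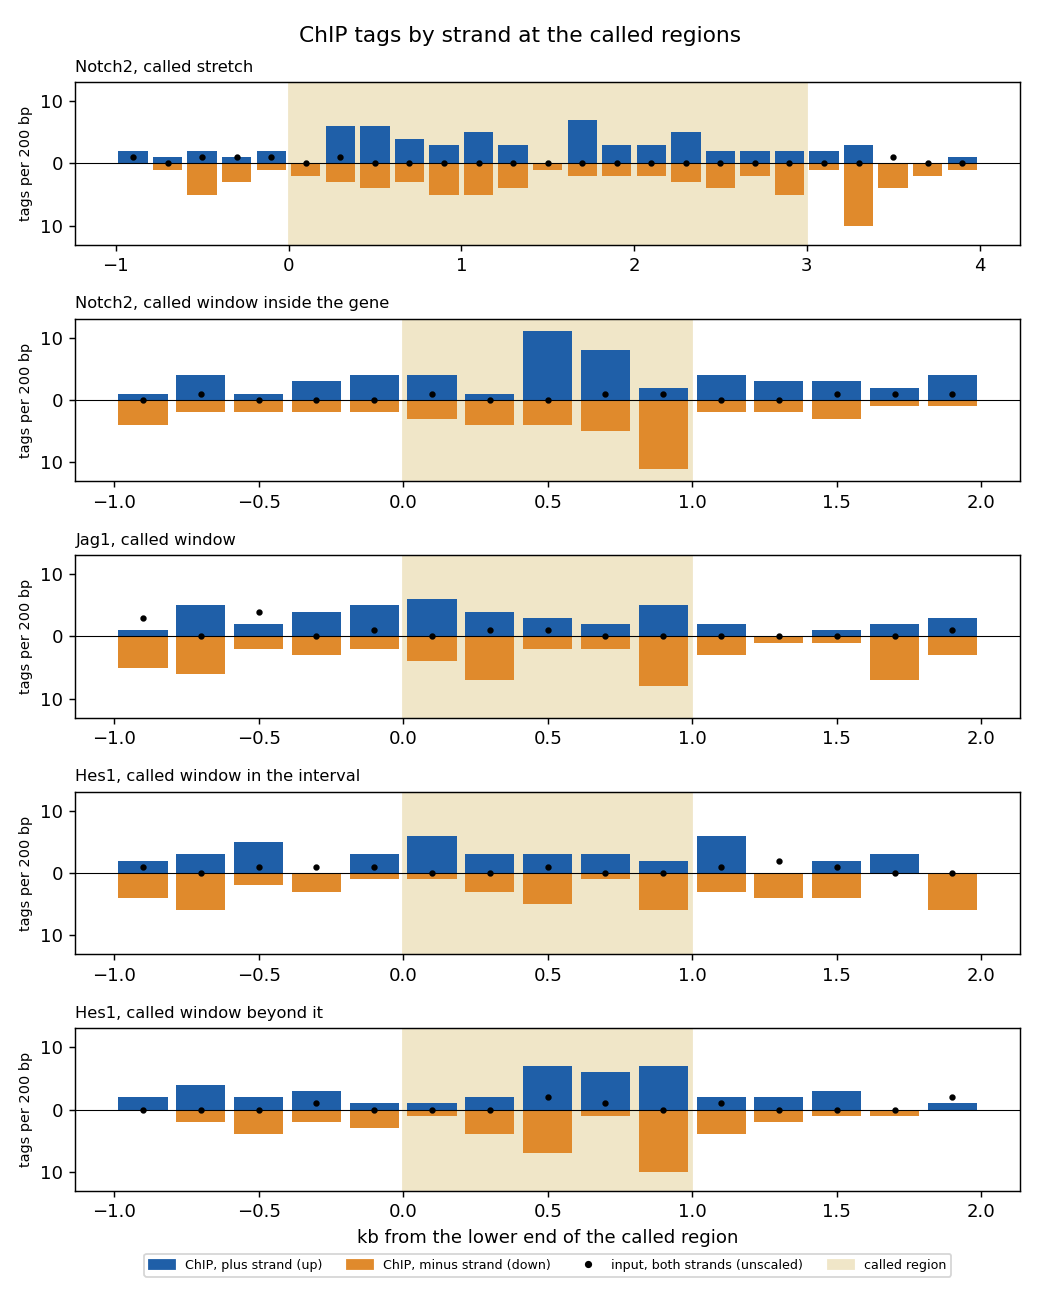
ChIP tags per 200 bp on the plus strand (up) and minus strand (down) and input tags on both strands (dots, unscaled), by distance in kb from the lower end of each called region (shaded). Tags of both strands fill the regions; the fullest bin is the last of the Hes1 window above the interval, with 7 plus and 10 minus tags.

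Over whole loci neither strand prevailed in the ChIP library. Plus-strand tags made up 50.3% (48.2 to 52.4, exact binomial 95% interval) in Notch2, 50.9% (47.9 to 54.0) in Notch1, 50.6% (47.1 to 54.0) in Jag1 and 49.8% (45.8 to 53.7) in Hes1. Positions with 2 ChIP tags numbered 24 of 2214 in Notch2, 15 of 1059 in Notch1, 9 of 825 in Jag1 and 8 of 619 in Hes1, and the input had none in the loci. In the whole libraries 110702 of 13470565 ChIP positions (0.822%) and 2011 of 5776609 input positions (0.0348%) held 2 tags. At that input share, none in the loci is not informative.

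The spacing of tags is a measure that the ChIP/input ratio does not enter. On the autosomes, pairs of ChIP tags on a strand were most frequent at 173 bp within the range searched and least frequent after it at 275 bp, with 1.04 times as many pairs in a 31 bp band at the first distance. In the 4 loci together the ChIP counts were 1288 and 1246 pairs, 1.03 times (0.956 to 1.12). Pairs share tags, so this interval is too narrow, and a nucleosome-sized excess of the genome's size was not detectable in the loci at this depth. The input had 67 and 54 pairs at its own distances of 169 and 268 bp, 1.24 times (0.854 to 1.81).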

How the data were processed

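Brg1 binding was measured in 1 ChIP and 1 input library. The submitters' processing notes name Bowtie and mm9; versions, settings and any filter on repeated tags are not given in the sources used here. The deposited values are counts of tags per chromosome, strand and position, with no normalization, and positions are as deposited. Genes, lists and tests were chosen with earlier results of these data known.

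Tags were moved 75 bp along their strand and counted in the loci and in windows. ChIP was scaled to input by autosomal totals (13215004 and 5608004 tags). Windows with at least 10 tags were tested over the genome (two-sided exact binomial test, smaller tail doubled, Benjamini-Hochberg adjustment). Intervals are conditional Clopper-Pearson intervals at 95%, and 3 tags stood in for 0. The windows named are the called ones, the 3 per locus with the highest lower bound, those beside the start end and the densest.

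Tested on simulated data over 753589 windows of 1 kb, the window test called 0% of 2-fold, 6% of 4-fold and 83% of 8-fold windows, and 6 unchanged ones. Apart from the set fold, the simulated libraries differed by counting error alone. The 6 therefore do not measure wrong calls from other differences between the libraries. Interval ends in the rule are rounded to 1000 bp, so starts are no better placed. Other Notch pathway genes, and genes of a like pattern, are not analysed here, since the gene table is on GRCm38. Alternatives were other scalings, removal of repeated tags, unmoved tags, other minimums, windows, ratios and locus widths, and a floor on the input. Python 3.11.15, numpy 2.4.6, scipy 1.17.1, pandas 2.3.3 and matplotlib 3.10.9 were used.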

Additional observations from a re-analysis of the deposited data

How the results depend on the processing

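Background scaling, 2.12 ChIP tags per input tag, raised every ratio 1.11 times (0.16 on the log2 scale) and took the Notch2 locus to 1.87, outside its interval. Without widening, Hes1 stood at 3.08. The other 26 of 28 locus ratios and all 51 alternative values of the parts of loci stayed inside their intervals. Of 286 windows, 7 were called higher, beside 0.38% of the genome. With a minimum of 20 tags it was 26 of 94, beside 19.4%, with no minimum 1 of 386, beside 0.0295%, and with 2 kb windows 15 of 188, beside 0.802%. It was 0 with 500 bp windows (0.00376% of the genome), with 1 tag per strand within 5 bp (0.0585%) and with the input held at its mean over 10 kb (0.00496%). No window of the loci was called lower under any setting. A ratio of at least 1.5, found in 143, was found in 77 of 94 with a minimum of 20 tags, beside 76.7%, a share near that of the genome, and in 90 of 188 windows of 2 kb, beside 25%. A ratio at or below its inverse, found in 34, was found in 0 of 94 with a minimum of 20 tags (2.37% of the genome), 62 of 386 with no minimum (42.2%), 12 of 210 with 500 bp windows (11.4%) and 19 of 188 with 2 kb windows (27.3%). At or below the inverse of 2 there were 15 of 286 (11.3%). The minimum and window size change the number of windows tested; for the other settings the cause was not tested. The other p-value and the 10 kb windows with 1 tag per strand within 5 bp (8 called, against 9) were added after the data were seen. No paired analysis was possible because ChIP and input have a single library each. Depth, at 2.32 input tags per kb, limits every 1 kb ratio.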

Other observations

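ChIP tags were also dense in flanks away from the gene starts. The 20 kb beyond the Jag1 gene end held 262 ChIP and 66 input tags (ratio 1.68, 1.28 to 2.24). The gene beyond its first 11 kb stood at 1.19 (0.924 to 1.54), and these intervals overlap. The densest window of the flank, from 136905000, held 27 and 1 tags, a ratio of 11.5 (1.89 to 469), and was not called. The next gene on this side in the GRCm38 gene table is Slx4ip. Beyond the Notch1 gene end the next gene in that table is 0610009E02Rik. There 4 windows between 57 and 61 kb from the start end held 19, 27, 30 and 20 ChIP tags with 4, 5, 7 and 4 input tags. Both libraries were above their autosomal means of 5.47 and 2.32 tags per kb in these windows. The ratio of the whole 20 kb flank was 1.21 (0.924 to 1.599), and that of the 4 windows alone was not computed.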
